A study of Mus musculus with 16 samples.

Results

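The 42 genes described here encode the machinery of autophagy and the lysosome in which it ends. They were chosen by name, as the rows of a mouse liver RNA-seq table whose Ensembl IDs map to the 42 symbols, and they are 42 of the 46078 genes of that table. Male C57BL6/J mice (the labels spell the strain C56B6/J), for which the labels give no transgene, deletion or drug, were given either control (CD) or high-fat (HFD) diet for 16 weeks from 8 weeks of age. Livers were harvested from mice with free access to food (fed) or after a 16 h fast, which gave the groups CD fed, CD fast, HFD fed and HFD fast with 4 libraries each. The study asked how the liver adapts to feeding, fasting and diet. Only 1 sex and 1 duration of fasting were examined, and the labels do not tie a library to a named animal, so that p-values measure the spread between these libraries. By role, 9 members act in initiation (Ulk1, Ulk2, Atg13, Atg101, Becn1, Pik3c3, Pik3r4, Atg14, Uvrag), 5 in membrane supply (Atg2a, Atg2b, Atg9a, Wipi1, Wipi2) and 10 in conjugation (Atg3, Atg4a, Atg4b, Atg4c, Atg4d, Atg5, Atg7, Atg10, Atg12, Atg16l1). The Atg8 family has 5 members (Map1lc3a, Map1lc3b, Gabarap, Gabarapl1, Gabarapl2), the cargo receptors 6 (Sqstm1, Nbr1, Optn, Tax1bp1, Bnip3, Bnip3l), the transcription factors 2 (Tfeb, Tfe3) and the lysosome 5 (Lamp1, Lamp2, Ctsb, Ctsd, Ctsl).

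In autophagy, a membrane cup grows around cytoplasm or an organelle, closes to an autophagosome and fuses with a lysosome, whose hydrolases digest the contents. The ULK kinase complex and the lipid kinase complex of BECN1 start the cup, ATG2 and ATG9 proteins supply lipid, conjugation enzymes attach Atg8-family proteins to the membrane, and receptors tie cargo to these proteins. In the liver, autophagy delivers amino acids and lipids during fasting, nutrient-sensing mTORC1 restrains it in the fed state, and TFEB and TFE3 are transcription factors of lysosomal genes.

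All 42 members passed the filter on low counts, with a mean of 166 (Atg10) to 27842 (Lamp1) counts per library. Library totals were between 41364448 and 57583153 counts. Levels are given as CPM, counts corrected for library total with edgeR's TMM factors, and changes as log2 fold changes from edgeR's quasi-likelihood test over 15075 genes, with a Benjamini-Hochberg adjusted p under 0.05 as the threshold. The 42 genes together took 5551 to 5821 CPM in CD fed, 5897 to 6261 in CD fast, 5288 to 5834 in HFD fed and 5224 to 5743 in HFD fast libraries. With TMM scaling the 4 CD fast sums lay above all others, an order that did not hold for shares of the library total. HFD fast replicate 4 had 283087 member counts in a total of 43743234, and CD fast replicate 1 had 250036 in 43485534. The TMM factors of these libraries were 1.13 and 0.975. The 8 hepatocyte markers examined were abundant in every library, at a summed level of 113916 to 147919 CPM in CD fed, 96681 to 119881 in CD fast, 116205 to 146411 in HFD fed and 79632 to 111129 in HFD fast libraries, so that the sums did not overlap between fed and fasted livers on HFD. Of the 8 markers 1 fell with fasting in each diet. Bulk liver RNA cannot tell fewer cells of a type from less RNA per cell.

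Fasting on CD changed 15 of the 42 genes, 9 higher and 6 lower, while 25.2% of all genes tested passed the same threshold (13.7% higher and 11.5% lower). The genes that fell were the initiation genes Ulk1, Ulk2, Atg13, Atg101 and Atg14, and Atg2b. The genes that rose were Atg2a, Atg4d, Atg16l1, Map1lc3a, Map1lc3b, Sqstm1, Optn, Bnip3 and Ctsl. The median log2 fold change of the 42 was 0.03, beside -0.01 over all genes. With scaling by total counts in place of TMM, 6 rose and 8 fell. Without CD fed replicate 4 the count was 9 in place of 15. The fed and fasted libraries did not overlap for 16 of the 42, beside 25.4% of all genes tested. Markers of other cells moved in the same comparison. Lower in fasted livers were 5 of 12 macrophage, 4 of 6 endothelial, 1 of 6 stellate cell and 1 of 5 tested erythrocyte markers, and both tested pancreas markers, with pancreas list sums of 14.4 to 23.5 CPM in CD fed and 6.17 to 12.03 in CD fast libraries. The sum of 5 adipocyte markers was 4.04 to 19.1 CPM in CD fed and 71.97 to 264 in CD fast libraries, and the 1 of them that passed the count filter, Cidec, a lipid droplet gene that hepatocytes also express, rose. The part of these cells in the members' changes was not tested.

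Fasting on HFD changed 7 members, beside 8.86% of all genes tested (4.78% higher and 4.07% lower). Ulk1, Becn1, Atg14, Atg2b, Wipi1 and Bnip3l fell, and Atg7 rose. Of the markers of other cells, 1 of 5 tested erythrocyte and 1 of 2 tested pancreas markers were lower in fasted livers. Pancreas list sums were 9.27 to 19.2 CPM in HFD fed and 6.30 to 9.20 in HFD fast libraries. Cidec was higher, with adipocyte list sums of 9.50 to 63.4 CPM in HFD fed and 97.9 to 174 in HFD fast libraries. The part of these cells and of the lower hepatocyte marker sums in these changes was not tested. DESeq2 called 10, with Atg13, Atg4c and Tfe3 lower in addition. With scaling by total counts 2 rose and 4 fell. The count was 4 when HFD fed replicate 2, HFD fed replicate 3 or HFD fast replicate 1 was left out, and 3 when HFD fed replicate 1 or HFD fast replicate 3 was. Libraries did not overlap for 8 of the 42, beside 16.7% of all genes tested. Ulk1, Atg14 and Atg2b passed in both diets (7.14% of the members, beside 4.80% of all genes tested), 12 members passed on CD alone (28.6%, beside 20.4%) and 4 on HFD alone (9.52%, beside 4.05%). The absolute change with fasting was larger on CD for 28 of the 42 (66.7%) and for 59.2% of all genes tested. Passing in a single diet is no test of a difference between diets, which is given by the interaction further on.

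**Figure D1:**
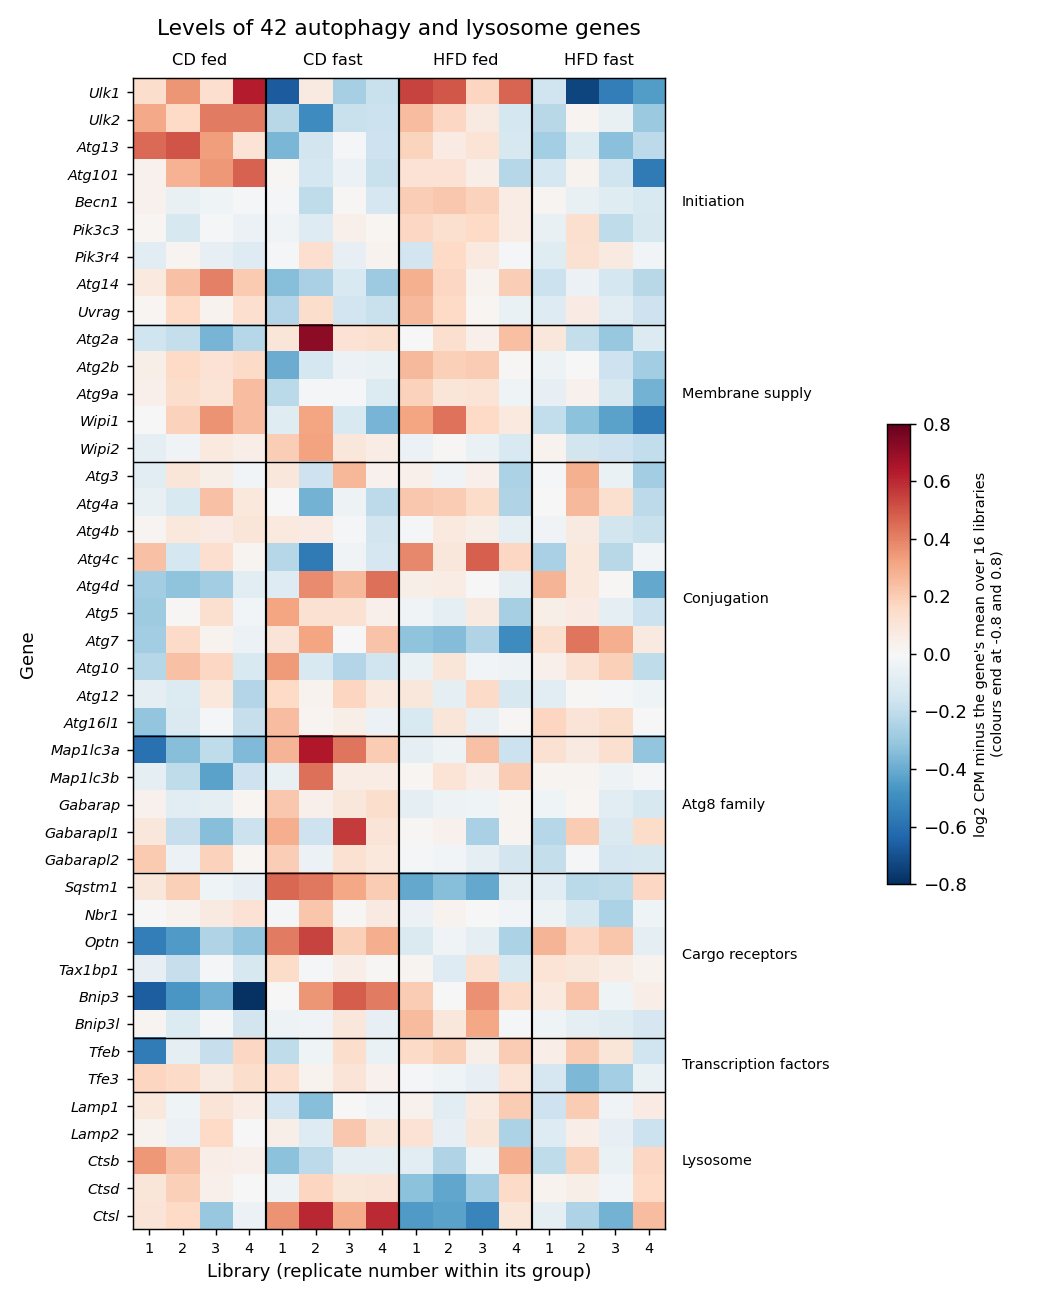
Level of each of the 42 genes (rows, grouped by role) in each of the 16 libraries (columns, 4 per group), as log2 CPM minus the gene's mean over all libraries (red higher, blue lower, colours end at -0.8 and 0.8). Ulk1 is red in fed and mostly blue in fasted columns of both diets, whereas Bnip3 and Map1lc3a are blue mainly in the 4 CD fed columns.

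Of the 9 initiation genes 5 fell with fasting on CD and 3 on HFD, while 11.5% and 4.07% of all genes tested were lower. For the roles described further on, the shares of all genes tested that were higher were 13.7% on CD and 4.78% on HFD. The median log2 change over the 9 was -0.38 on CD and -0.23 on HFD, beside -0.01 and 0.01 over all genes. Ulk1 (GRCm38 chr5:110784488-110810097, minus strand) encodes the kinase that starts the cup. It was at 141, 164, 140.2 and 198 CPM in the CD fed group and 80.8, 135, 106 and 113 in the CD fast group. On HFD it was at 186, 181, 144 and 177 CPM in fed and 115, 76.8, 87.4 and 93.8 in fasted libraries. In both diets every fed library lay above every fasted one. Ulk1 fell by 0.56 on the log2 scale on CD (SE 0.16, adjusted p = 0.0167) and by 0.89 on HFD (SE 0.16, adjusted p = 0.00435). The CD call was lost without CD fed replicate 4 (adjusted p = 0.0585), the highest of its group, and the difference between diets had an interval of -0.79 to 0.15 (interaction, adjusted p = 0.439).

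Atg14 (GRCm38 chr14:47540893-47570649, minus strand) encodes the subunit that directs the BECN1 lipid kinase complex to autophagosome formation. Its levels were 24.1, 26.8, 30.2 and 26.4 CPM in the CD fed group and 18.02, 19.1, 20.9 and 18.7 in the CD fast group. They were 27.7, 25.6, 23.3 and 26.1 CPM in the HFD fed group and 20.3, 22.1, 20.7 and 19.6 in the HFD fast group. Fed and fasted libraries did not overlap in either diet. The change was -0.49 on CD (SE 0.08, adjusted p = 0.000507) and -0.31 on HFD (SE 0.08, adjusted p = 0.023). The HFD call was lost in 4 of 16 fits without 1 library, up to an adjusted p of 0.082 without HFD fed replicate 1. The others were HFD fast replicates 1, 3 and 4.

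Ulk2, a second kinase of this family, had 88.4 ± 7.21 CPM in the CD fed group and 58.7 ± 6.06 in the CD fast group (mean ± SD, n = 4) and fell by 0.59 on the log2 scale (adjusted p = 0.000803). Atg13, the regulatory subunit of the ULK complex, went from 68.9 ± 8.07 to 47.99 ± 4.75 CPM (log2 fold change -0.52, SE 0.10, adjusted p = 0.00133). Its partner Atg101 went from 29.5 ± 3.68 to 22.7 ± 1.38 CPM (log2 fold change -0.38, SE 0.12, adjusted p = 0.0302), a call lost without CD fed replicate 2, 3 or 4 or CD fast replicate 2 or 4, with an adjusted p up to 0.0926. These 3 genes did not overlap between CD fed and CD fast libraries. On HFD their log2 changes were -0.23, -0.29 and -0.22, with adjusted p of 0.171, 0.07 and 0.276. Becn1, the scaffold of the lipid kinase complex, passed on HFD alone, from 66.9 ± 3.14 to 57.1 ± 2.53 CPM (log2 fold change -0.23, SE 0.06, adjusted p = 0.0331). Its call was lost when any of HFD fed replicates 1, 2 and 3 or HFD fast replicates 3 and 4 was left out, up to an adjusted p of 0.0924, and with total count scaling, no count filter or only the 2 groups compared. The catalytic and regulatory subunits Pik3c3 and Pik3r4 and the alternative subunit Uvrag did not pass in any comparison, with fasting changes of 0.02, 0.08 and -0.19 on CD. Uvrag passed with fasting on CD without CD fast replicate 2 (adjusted p = 0.0311). Pik3c3 passed with fasting on HFD without HFD fast replicate 2 (0.0224) and for HFD in fed livers with total count scaling (0.0322).

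**Figure D2:**
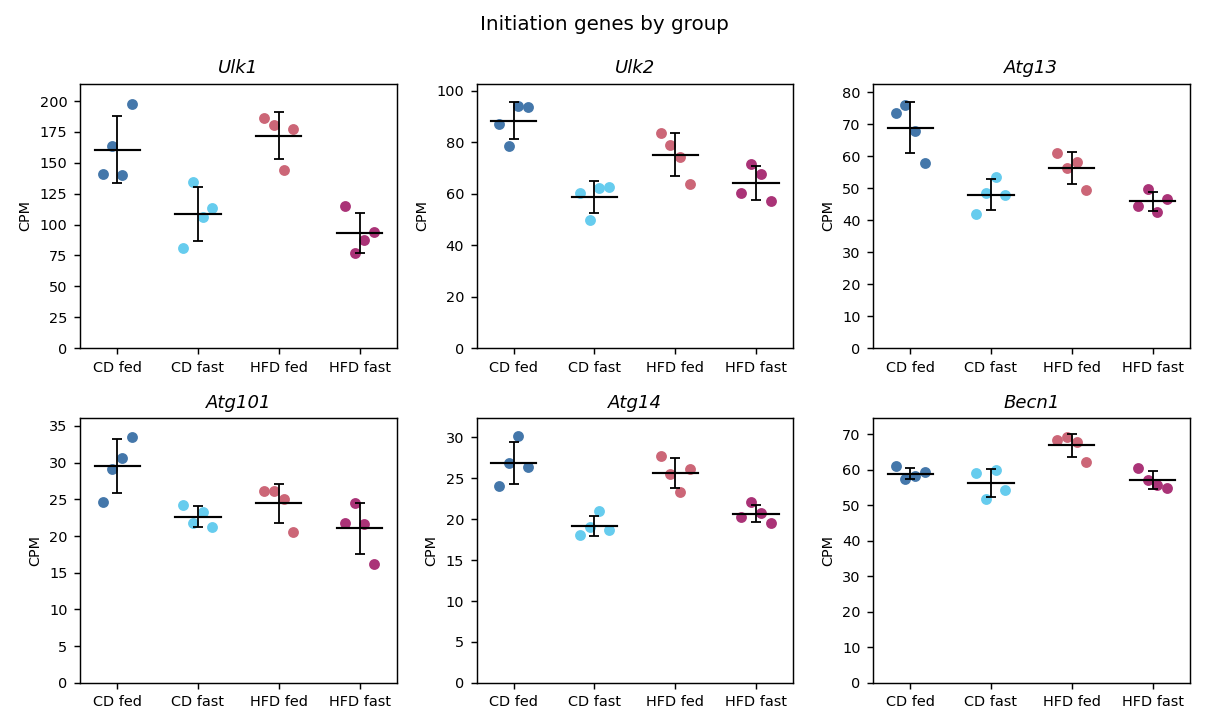
CPM of 6 initiation genes in the 4 groups (points, single libraries; bar and whiskers, mean ± SD, n = 4; axes start at 0). For Ulk1 and Atg14 the fed points lie above the fasted points in both diets, for Ulk2, Atg13 and Atg101 on CD, and for Becn1 on HFD.

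Of the 5 genes of membrane supply, Atg2a rose and Atg2b fell with fasting on CD, and Atg2b and Wipi1 fell on HFD. Atg2a and Atg2b encode paralogous lipid transfer proteins that feed the growing cup. Atg2a (GRCm38 chr19:6241668-6262335, plus strand) was at 67.9, 66.5, 58.6 and 64.8 CPM in the CD fed group and 81.1, 124, 82.03 and 82.8 in the CD fast group. On HFD it was at 75.9, 82.98, 77.9 and 89.6 CPM in fed and 80.7, 66.3, 61.6 and 70.4 in fasted livers. The CD groups did not overlap, with CD fast replicate 2 far above the other 3 fasted libraries, whereas the HFD groups overlapped. Atg2a rose on CD (log2 fold change 0.52, SE 0.13, adjusted p = 0.00752) and stayed called without that library at a log2 change of 0.35. On HFD the change was -0.23 (adjusted p = 0.276).

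Atg2b (GRCm38 chr12:105616136-105685211, minus strand) had 53.8, 58.1, 56.4 and 57.8 CPM in the CD fed group and 39.6, 47.2, 50.3 and 50.2 in the CD fast group. It had 62.5, 59.4, 59.95 and 52.4 CPM in the HFD fed group and 50.6, 51.9, 46.4 and 42.9 in the HFD fast group. Fasted libraries lay below fed ones in both diets. The log2 changes were -0.27 on CD (adjusted p = 0.0289) and -0.29 on HFD (adjusted p = 0.0447). The first call was lost in 5 and the second in 10 of 16 fits without 1 library, and the highest adjusted p were 0.0841 (without CD fast replicate 1) and 0.134 (without HFD fed replicate 1). Both were lost with only the 2 groups compared (0.0503 and 0.0675), and the HFD call also with no count filter (0.0794) and with the replicate block (0.0581).

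Wipi1 and Wipi2 bind the phosphoinositide of the cup, and Wipi2 recruits the conjugation enzymes. Wipi1 (GRCm38 chr11:109573331-109611967, minus strand) was at 18.2, 20.6, 23.2 and 21.5 CPM in the CD fed group and 16.9, 22.6, 16.6 and 14.02 in the CD fast group. It was at 22.6, 24.4, 20.2 and 19.1 CPM in the HFD fed group and 15.8, 14.4, 13.5 and 12.2 in the HFD fast group. The groups overlapped on CD and not on HFD, where every fasted library was lower. The change on HFD was -0.63 (SE 0.13, adjusted p = 0.01) and that on CD -0.25 (adjusted p = 0.171), with an interaction of -0.37 (interval -0.77 to 0.02, adjusted p = 0.267). Without CD fast replicate 2, the highest of its group, Wipi1 passed on CD as well (-0.40, adjusted p = 0.0269). Atg9a, the membrane protein that carries lipid vesicles to the cup, changed by -0.22 in each diet, with adjusted p of 0.0659 and 0.115. On CD it passed with total count scaling (0.0108), with the filter of at least 1 CPM in 8 libraries (0.0416) and without HFD fast replicate 2 (0.0448) or 4 (0.0320), and on HFD without HFD fast replicate 2 (0.0478).

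Of the 10 conjugation genes, Atg4d and Atg16l1 rose on CD and Atg7 rose on HFD. Atg7 (GRCm38 chr6:114643097-114860614, plus strand) encodes the E1-like enzyme that activates both ubiquitin-like proteins of the pathway. It was at 35.7, 48.2, 44.2 and 42 CPM in the CD fed group and 46.7, 54.03, 43.3 and 50.9 in the CD fast group. It was at 34.7, 34.1, 36.7 and 30.5 CPM in the HFD fed group and 47.5, 58.3, 52.98 and 45.5 in the HFD fast group. The HFD groups were apart and the CD groups overlapped. The rise on HFD was 0.59 (SE 0.10, adjusted p = 0.00371) and the change on CD 0.20 (adjusted p = 0.174). The difference between the 2 was 0.39 (interval 0.08 to 0.70, adjusted p = 0.148).

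Atg4d, one of 4 proteases that cut and recycle Atg8 proteins, went from 23.3 ± 1.79 to 32.8 ± 5.20 CPM on CD (log2 fold change 0.49, SE 0.13, adjusted p = 0.0118). Its lowest fasted library, at 25.5 CPM, was just below its highest fed one, at 25.9. Atg16l1, which places the conjugation complex on the membrane, went from 36.1 ± 3.14 to 42.2 ± 3.82 CPM (log2 fold change 0.23, SE 0.08, adjusted p = 0.0477), also with overlapping libraries, and its call was lost in 12 of 16 fits without 1 library (the highest adjusted p was 0.147, without CD fast replicate 1) and with total count scaling, no count filter, only the 2 groups compared or the replicate block (0.0609 to 0.123). The other 7 did not pass in any comparison with all libraries in edgeR without the replicate block. Atg12 passed with fasting on CD with the replicate block (adjusted p = 0.0439) and without CD fed replicate 3 (0.0335), and Atg4c with fasting on HFD with DESeq2 (0.0348) and without CD fast replicate 2 (0.0365) or HFD fast replicate 2 (0.0471). On CD their changes with fasting ran from -0.29 for Atg4c to 0.19 for Atg5 and Atg12, the E2-like Atg3 changed by 0.05 and Atg4b by -0.07.

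In the Atg8 family, whose members coat the autophagosome membrane and hold receptors there, Map1lc3a and Map1lc3b rose with fasting on CD and neither passed on HFD. Map1lc3a (GRCm38 chr2:155276297-155278073, plus strand) was at 26.8, 32.1, 35.3 and 31.8 CPM in the CD fed group and 49.1, 63.2, 54.6 and 46.7 in the CD fast group. On HFD it was at 38.5, 39.5, 47.7 and 36.1 CPM in fed and 44.1, 42.6, 44.4 and 32.6 in fasted livers. The CD fed libraries lay below all others except HFD fast replicate 4, and fed and fasted libraries overlapped on HFD. The change was 0.76 on CD (SE 0.12, adjusted p = 0.000543) and 0.02 on HFD (interval -0.25 to 0.28, adjusted p = 0.947).

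Map1lc3b (GRCm38 chr8:121590361-121598760, plus strand), the LC3 form most often used as a mark of autophagosomes, was at 133, 122, 104 and 125 CPM in the CD fed group and 134, 190.4, 146 and 146 in the CD fast group. On HFD it was at 141, 151, 145 and 161 CPM in fed and 142, 142, 136 and 139 in fasted livers. The CD groups were separated by a narrow gap, and CD fast replicate 2 was the highest of the 16 libraries. The rise on CD (log2 fold change 0.35, SE 0.10, adjusted p = 0.0192) was lost without CD fed replicate 3 (adjusted p = 0.0605), without CD fast replicate 2 (0.0583, log2 change 0.23) and with only the 2 groups compared (0.0730). On HFD the change was -0.10 (adjusted p = 0.573). Gabarap, Gabarapl1 and Gabarapl2, the second branch of the family, did not pass in any comparison, with intervals of the change on CD of 0.02 to 0.29, 0.06 to 0.67 and -0.16 to 0.15 and adjusted p of 0.0813, 0.0763 and 0.981. On CD DESeq2 called Gabarap (0.0254), and Gabarapl1 passed without CD fast replicate 2 (0.47, adjusted p = 0.0266). Per kilobase of the longest principal transcript, Gabarapl1 had the highest level of the family, with a mean of 207 CPM per kilobase over all libraries, followed by Gabarap (131), Map1lc3b (55.8), Map1lc3a (37.4) and Gabarapl2 (34.1). The last 2 stood in the other order in the CD fed group, at 28.3 for Map1lc3a and 36.2 for Gabarapl2.

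Of the 6 cargo receptors, Bnip3, Optn and Sqstm1 rose with fasting on CD and Bnip3l fell on HFD, and the rise of Bnip3 was the largest of the 42 genes on CD. Bnip3 (GRCm38 chr7:138890836-138909519, minus strand) encodes a mitochondrial outer membrane protein that links mitochondria to Atg8 proteins. It was at 133, 153, 161 and 122 CPM in the CD fed group and 211, 269, 294 and 281 in the CD fast group. It was at 243, 211, 271 and 234 CPM in the HFD fed group and 222, 247, 206 and 219 in the HFD fast group. All 4 CD fed libraries lay below the other 12, and among the other 3 groups the libraries overlapped. Bnip3 rose with fasting on CD (log2 fold change 0.89, SE 0.12, adjusted p = 9.7e-05), and on HFD the change was -0.10 (interval -0.35 to 0.14, adjusted p = 0.619). An antisense gene, Gm45507, which was not among the genes counted, covers 22.3% of its exonic bases, and the strand setting of the counting is not stated.

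Optn (GRCm38 chr2:5020642-5064051, minus strand) encodes optineurin, a receptor for ubiquitin-marked mitochondria and bacteria. It was at 88.8, 95.1, 110.0 and 105 CPM in the CD fed group and 174, 189.6, 149 and 159 in the CD fast group. It was at 120.2, 128, 124 and 109 CPM in the HFD fed group and 157, 146, 152 and 124 in the HFD fast group. The CD groups did not overlap and the HFD groups did. The change was 0.75 on CD (SE 0.10, adjusted p = 9.11e-05) and 0.27 on HFD (SE 0.10, adjusted p = 0.0982). The HFD change passed with total count scaling (adjusted p = 0.0455) and without HFD fast replicate 4 (0.0474).

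Sqstm1 (GRCm38 chr11:50199366-50210827, minus strand) encodes p62, which binds ubiquitin-marked protein and is itself digested with its cargo. It was at 455, 488, 418 and 408 CPM in the CD fed group and 588, 572, 531 and 492 in the CD fast group. It was at 322, 338, 322 and 405 CPM in the HFD fed group and 401, 368, 372 and 479.7 in the HFD fast group. CD fast libraries were the highest of the 4 groups and HFD fed libraries were below all CD fed ones. The rise with fasting on CD (log2 fold change 0.30, SE 0.11, adjusted p = 0.0484) stood close to the threshold and was lost in 12 of 16 fits without 1 library, with an adjusted p up to 0.123 without CD fed replicate 4, and under 6 other settings (0.0508 to 0.138). The change on HFD was 0.22 (adjusted p = 0.201). Mrnip, on the opposite strand, shares 17.3% of its exonic bases.

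Bnip3l (GRCm38 chr14:66985239-67008877), a paralogue of Bnip3 with the same mitochondrial role, was at 68.8, 62.8, 67.2 and 61.3 CPM in the CD fed group and 65.9, 66.6, 72.4 and 64.9 in the CD fast group. It was at 80.9, 72.2, 83.9 and 67.3 CPM in the HFD fed group and 66.4, 64.3, 63.4 and 61.8 in the HFD fast group. The HFD groups were apart, with fed libraries higher, and the CD groups overlapped. The change on HFD was -0.25 (adjusted p = 0.0416) and was lost in 9 of 16 fits without 1 library, up to an adjusted p of 0.129 without HFD fed replicate 1, and with total count scaling, no count filter or only the 2 groups compared (0.0775 to 0.0896). On CD it was 0.05 (adjusted p = 0.627). Bnip3l, like Atg4a, has 1 named pseudogene that could share its reads. The ubiquitin-binding receptors Nbr1 and Tax1bp1 did not pass in any comparison, with changes on CD of 0.02 and 0.15.

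**Figure D3:**
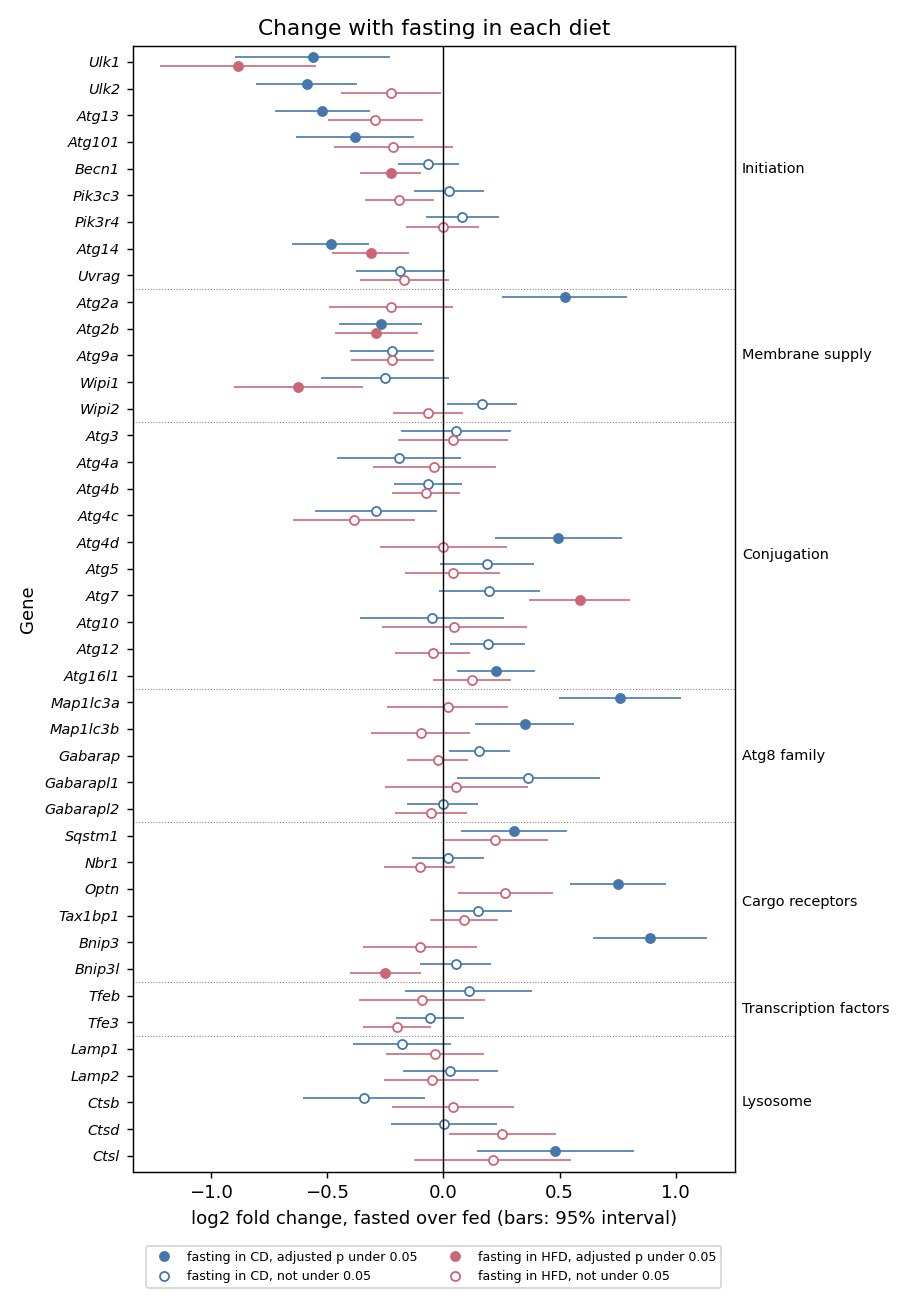
Log2 fold change of fasted over fed livers for each of the 42 genes on CD (blue) and on HFD (red), with 95% intervals; filled points have an adjusted p under 0.05. On CD the filled points of initiation genes lie left of 0 and those of conjugation genes, the Atg8 family and receptors right of it, and on HFD the filled points lie left of 0 except for Atg7.

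The transcripts of the transcription factors Tfeb and Tfe3 did not pass with fasting in either diet in edgeR with all libraries. Tfeb (GRCm38 chr17:47737030-47792419, plus strand) was at 5.76, 8.07, 7.45 and 9.52 CPM in the CD fed group and 7.36, 8.29, 9.35 and 8.18 in the CD fast group. It was at 9.40, 9.65, 8.76 and 9.74 CPM in the HFD fed group and 8.81, 9.77, 9.08 and 7.57 in the HFD fast group. All groups overlapped, and the CD fed libraries spread the most. The interval of its change with fasting was -0.17 to 0.38 on CD and -0.37 to 0.18 on HFD. These proteins are known to be controlled by movement into the nucleus, which transcript levels do not show.

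Tfe3 (GRCm38 chrX:7762560-7775202, plus strand) was at 30.2, 29.9, 28.2 and 29.6 CPM in the CD fed group and 29.4, 27.4, 28.9 and 27.5 in the CD fast group. It was at 26.5, 26.2, 25.6 and 28.9 CPM in the HFD fed group and 24.5, 20.9, 22.3 and 25.9 in the HFD fast group. HFD fast libraries were below all CD libraries. Tfe3 changed by -0.06 with fasting on CD (adjusted p = 0.563) and by -0.20 on HFD (adjusted p = 0.0845). On HFD it passed with DESeq2 (0.0376) and without HFD fast replicate 4 (-0.25, adjusted p = 0.0421).

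Both factors bind the E-box CACGTG, and the extended form TCACGTGA, which contains it, is the core of the element described for lysosomal genes. The letters were searched in RefSeq promoters of GRCm38.p6, 250 bases before to 50 bases after each start, of which 42 belong to 35 of the members. Both motifs read the same on both strands. CACGTG was present in 8 of these 42 promoters (19.0%), beside 7.15% of 32851 promoters in the table. TCACGTGA was present in 2 (4.76%, beside 0.974%), those of Atg3 and Ctsd. The forkhead letters GTAAACA, searched on both strands, were found in 3.65% of all promoters and in no member promoter. Matches stood in the promoters of Atg14, Atg3, Atg5, Atg7, Bnip3, Ctsd, Ctsl and Lamp1. The RefSeq start was 9066 bases from the nearest GENCODE transcript start for Atg7 and 214 bases for Ctsl, and within 44 bases for the other 6. The Atg14 start is that of a shorter transcript inside the gene's GENCODE span. Of the sequences below, Bnip3 and Atg14 are shown as members whose transcripts changed and Lamp1 and Ctsd as lysosomal members that did not pass, 5′ to 3′ on the gene's strand with the motif in capitals. They lie at chr7:138909507-138909756 (minus strand), chr14:47568430-47568684 (minus), chr8:13159091-13159160 (plus) and chr7:142387908-142387937 (minus).
Bnip3: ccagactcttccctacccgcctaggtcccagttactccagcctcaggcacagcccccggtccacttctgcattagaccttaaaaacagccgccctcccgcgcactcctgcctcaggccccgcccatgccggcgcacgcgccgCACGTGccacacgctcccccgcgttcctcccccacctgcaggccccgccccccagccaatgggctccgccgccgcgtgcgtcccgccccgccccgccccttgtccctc
Atg14: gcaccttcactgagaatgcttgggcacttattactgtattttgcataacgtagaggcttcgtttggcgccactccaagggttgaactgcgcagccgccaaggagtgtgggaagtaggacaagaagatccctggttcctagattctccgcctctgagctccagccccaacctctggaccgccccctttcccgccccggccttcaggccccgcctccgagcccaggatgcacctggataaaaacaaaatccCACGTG
Lamp1: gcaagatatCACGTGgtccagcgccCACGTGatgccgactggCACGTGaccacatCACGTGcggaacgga
Ctsd: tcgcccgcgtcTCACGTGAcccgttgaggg
The match began 108 bases before the start in Bnip3 and 1 base before it in Atg14. Lamp1 had 4 matches, 15, 28, 45 and 61 bases before its start, and the extended form in Ctsd began 99 bases before the start. A match is a description of the letters and shows no binding.

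Of the 5 lysosomal members, Ctsl rose with fasting on CD, and Ctsd passed on HFD when HFD fed replicate 4 was left out. Ctsl (GRCm38 chr13:64359337-64370890, minus strand) encodes cathepsin L, a cysteine protease. It was at 549, 571, 415 and 496 CPM in the CD fed group and 655, 778, 629.7 and 773 in the CD fast group. It was at 374, 380.3, 355 and 546 CPM in the HFD fed group and 486, 432, 394 and 608 in the HFD fast group. The 4 CD fast libraries were the highest of the 16, and replicate 4 was the highest in each HFD group. The rise on CD (log2 fold change 0.48, SE 0.16, adjusted p = 0.0373) was lost without CD fed replicate 1, 3 or 4 or CD fast replicate 2 or 4, with an adjusted p up to 0.105, with total count scaling (0.0770) and with no count filter (0.0540). On HFD the change was 0.21 (adjusted p = 0.425), and 0.38 without HFD fed replicate 4 (adjusted p = 0.112). The antisense gene Gm47123, which was not among the genes counted, covers 26.8% of its exonic bases.

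Ctsd (GRCm38 chr7:142375911-142388038, minus strand) encodes cathepsin D, an aspartic protease. It was at 418, 446, 403 and 391 CPM in the CD fed group and 381, 440.3, 419 and 420.1 in the CD fast group. It was at 312, 293, 323 and 436 CPM in the HFD fed group and 399, 405, 385 and 438 in the HFD fast group. Apart from HFD fed replicate 4, the HFD fed libraries were lower than all others. The change with fasting was 0.00 on CD (interval -0.23 to 0.23) and 0.25 on HFD (interval 0.03 to 0.48, adjusted p = 0.151). Without HFD fed replicate 4 it rose on HFD by 0.39 (adjusted p = 0.0117).

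Lamp1 (GRCm38 chr8:13159161-13175338, plus strand), a main glycoprotein of the lysosomal membrane, was at 607, 559, 615 and 595 CPM in the CD fed group and 514, 451, 573 and 561 in the CD fast group. It was at 585, 540.3, 603 and 659 CPM in the HFD fed group and 510.0, 658, 561 and 599 in the HFD fast group. The groups overlapped in all comparisons, and the interval of the fasting change was -0.39 to 0.03 on CD and -0.25 to 0.17 on HFD. Its relative Lamp2 changed by 0.03 on CD (interval -0.18 to 0.24). Ctsb, cathepsin B, was at 621 ± 64.7 CPM in the CD fed group and 490.1 ± 41.3 in the CD fast group without overlap, and its change of -0.34 had an adjusted p of 0.055, which was under the threshold with DESeq2 (0.0326), total count scaling (0.0408), only the 2 groups compared (0.0459) and without HFD fed replicate 4 (0.0321).

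Lysosomal genes are also expressed by macrophages. The summed level of 12 macrophage markers was 432 to 846 CPM in CD fed, 306 to 475 in CD fast, 470 to 722 in HFD fed and 386 to 631 in HFD fast libraries. With fasting on CD, 5 of the 12 fell, and 4 of 6 endothelial markers fell, with sums of 235 to 267 CPM in CD fed and 166 to 219 in CD fast. None of the 12 markers was at 0 in a whole group. HFD fed replicate 4 had the highest macrophage (722), stellate cell (381) and cholangiocyte (20.5) sums of its group. Its lipid-associated macrophage sum, over 6 markers, was 83.1 CPM beside 36.8 to 44.6 in the other 3 libraries. HFD fast replicate 4 stood apart likewise, with a lipid-associated macrophage sum of 124 CPM beside 31.1 to 51.9 and a stellate cell sum of 379.8 beside 216 to 274, while its macrophage sum of 563 lay within the range of its group. These were the highest libraries of their groups for Ctsl and Ctsd. The part of these cells in the lysosomal results was not tested.

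**Figure D4:**
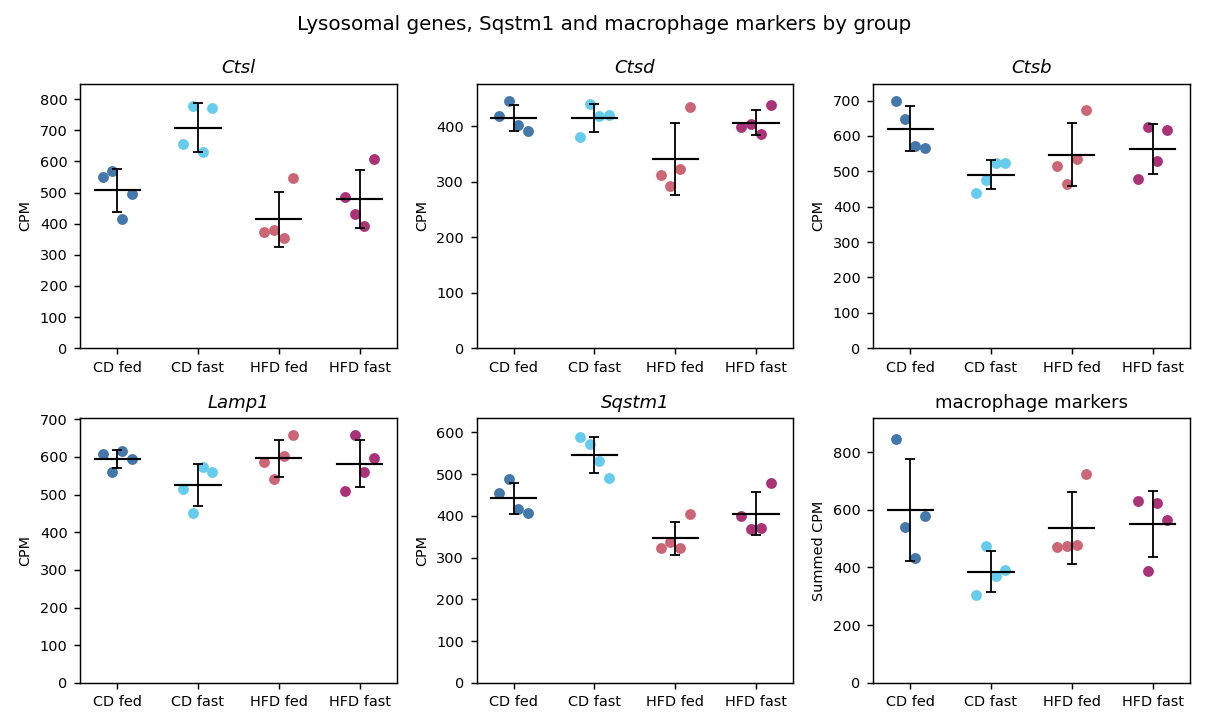
CPM of 4 lysosomal genes and Sqstm1, and the summed CPM of 12 macrophage markers, in the 4 groups (points, single libraries; bar and whiskers, mean ± SD, n = 4; axes start at 0). The Ctsl points of CD fast lie above all others, and in HFD fed 1 library, replicate 4, is the highest in every panel.

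HFD in fed livers changed 1 member, beside 7.50% of all genes tested (3.28% higher and 4.22% lower). Bnip3 was 239.8 ± 24.8 CPM in HFD fed and 142 ± 17.9 in CD fed livers (SD, n = 4), a rise of 0.75 on the log2 scale (SE 0.12, adjusted p = 0.00168) that passed without any 1 library and with every scaling and tool tried. The groups did not overlap for 8 members, beside 15.7% of all genes tested. Besides Bnip3 these were Sqstm1, with a difference of -0.35 (adjusted p = 0.0579), Map1lc3a (0.36, adjusted p = 0.0891), Map1lc3b (0.31, adjusted p = 0.0725), Becn1 (0.18, adjusted p = 0.0835), Pik3c3 (0.17, adjusted p = 0.155), Atg2a (0.34, adjusted p = 0.113) and Atg4d (0.25, adjusted p = 0.273), none of which passed. DESeq2 called 6 members, Bnip3, Bnip3l, Map1lc3b and Becn1 higher and Sqstm1 and Atg7 lower. Without HFD fed replicate 4, Bnip3, Bnip3l, Sqstm1 and Ctsd passed, with differences of -0.43 for Sqstm1 and -0.42 for Ctsd. Of those without overlap, Atg2a passed with only the 2 groups compared (adjusted p = 0.0281) and without CD fast replicate 2 (0.0215). Map1lc3b passed without that library (0.0223), Map1lc3a with the replicate block (0.0435) and Becn1 with upper quartile scaling (0.0465). Sqstm1 passed with limma-voom (0.0499) and without HFD fast replicate 4 (0.0356). The count was 3 without CD fast replicate 2, and 2 without CD fed replicate 1 or 4 or HFD fast replicate 4. With total count scaling, which moved the median of all genes to 0.08, 7 members passed, all higher. These were Becn1, Bnip3, Bnip3l, Map1lc3a, Map1lc3b, Optn and Pik3c3.

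HFD in fasted livers changed 4 members, all lower, beside 7.70% of all genes tested (3.05% higher and 4.65% lower). Wipi2 (GRCm38 chr5:142627698-142670588, plus strand) was at 102, 111, 94.5 and 92.5 CPM in CD fast and 90.4, 79.9, 78.9 and 77.2 in the HFD fast group, and at 83.8, 86.8, 93.5 and 91.8 in CD fed and 85.7, 89.3, 85.5 and 81.4 in HFD fed livers. The fasted groups did not overlap, and the change was -0.29 (SE 0.07, adjusted p = 0.0242). The difference was -0.43 for Sqstm1 (adjusted p = 0.0249), -0.28 for Tfe3 (adjusted p = 0.0258) and -0.56 for Ctsl (adjusted p = 0.0427), each without overlap between the groups. With only the 2 groups compared, a fit in which 0.623% of all genes tested passed, none of the 4 passed (0.0830 to 0.108), nor with total count scaling (0.129 to 0.389), and Wipi2 alone passed with upper quartile scaling. DESeq2 called 9 members, all lower, which were these 4 and Atg2a, Map1lc3a, Gabarap, Gabarapl2 and Nbr1. The fasted groups did not overlap for 9 members, beside 14.0% of all genes tested. Of 42 members 28 had a negative change, with a median of -0.07 beside 0.01 over all genes. With total count scaling, which moved the median of all genes to 0.17, the members' median was 0.08 and Atg14 alone passed, higher on HFD. No member passed without CD fast replicate 1 or HFD fast replicate 3, and 1 did without CD fast replicate 2 or HFD fast replicate 2. The Ctsl call was lost in 10 of 16 fits without 1 library, with an adjusted p up to 0.116. Those of Wipi2, Sqstm1 and Tfe3 were lost in 4 each, up to 0.0745, 0.0754 and 0.0782. In the same comparison 3 of 6 endothelial markers were higher on HFD. Their sums were 203 to 276 CPM in HFD fast and 166 to 219 in CD fast libraries. Of 6 stellate cell markers 1 was higher, with sums of 216 to 379.8 and 126 to 210.1 CPM. Also higher was 1 of 5 tested erythrocyte markers, and 1 of 8 hepatocyte markers was lower. The hepatocyte sums were 79632 to 111129 CPM in HFD fast and 96681 to 119881 in CD fast libraries. The part of these cells in the result was not tested.

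The diet by fasting interaction asks whether the change with fasting differed between diets. It passed for 3 members, beside 2.59% of all genes tested (1.23% positive and 1.36% negative), and in all 3 the rise with fasting on CD was larger than the change on HFD. Bnip3 had the largest difference (-0.99, SE 0.16, adjusted p = 0.00938), with a fasting change of 0.89 on CD and -0.10 on HFD. Map1lc3a differed by -0.74 (SE 0.17, adjusted p = 0.0369) and Atg2a by -0.75 (SE 0.18, adjusted p = 0.0388). Bnip3 alone passed in every fit without 1 library. Map1lc3a was lost in 10 and Atg2a in 11 of 16 such fits, with adjusted p up to 0.0767 and 0.0829, and Atg2a also with total count scaling (0.0658). The count was 1 when any of CD fed replicates 1, 2 and 4, HFD fed replicates 1, 2 and 3 and HFD fast replicates 3 and 4 was left out. Optn (-0.48, adjusted p = 0.0711) and Map1lc3b (-0.45, adjusted p = 0.1) did not pass, and their intervals were -0.78 to -0.19 and -0.75 to -0.15. Both passed with DESeq2 (0.0170 and 0.0375), and Optn without CD fast replicate 3 (0.0499). Of the cell markers, 1 of 6 endothelial and 1 of 5 tested erythrocyte markers passed the interaction test, with positive differences. The part of these cells in the members' differences was not tested.

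**Figure D5:**
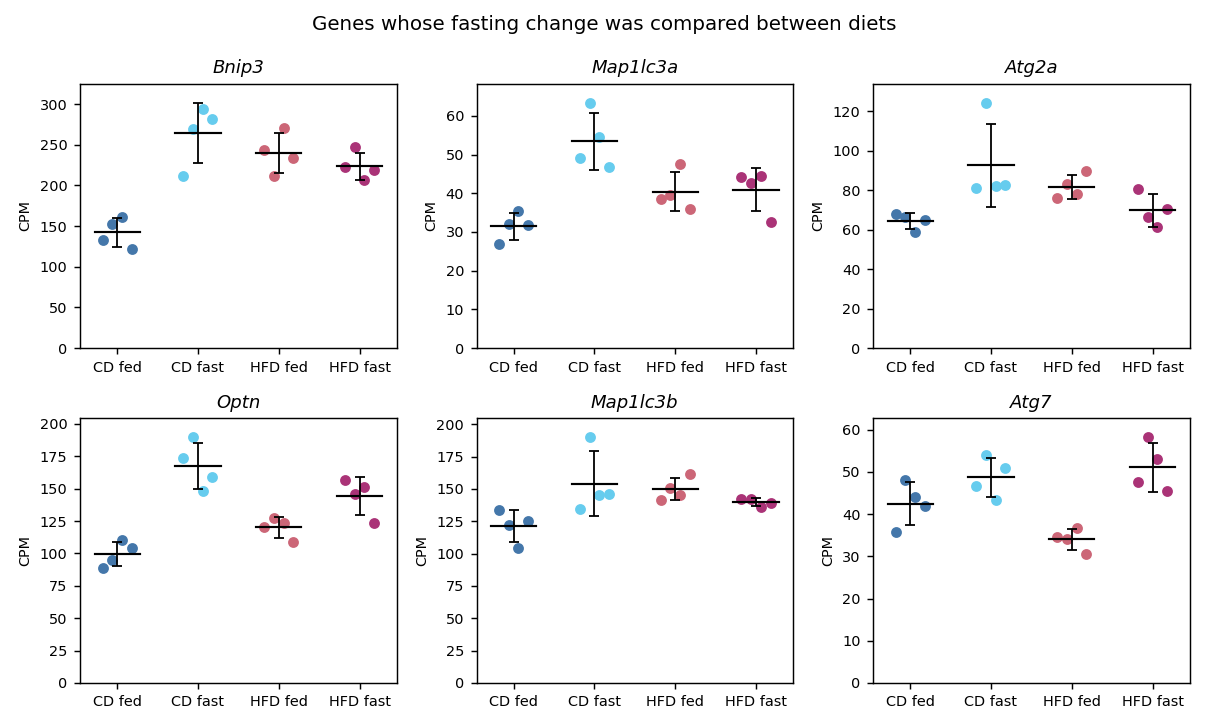
CPM of Bnip3, Map1lc3a, Atg2a, Optn, Map1lc3b and Atg7 in the 4 groups (points, single libraries; bar and whiskers, mean ± SD, n = 4; axes start at 0). The 4 CD fed points of Bnip3 lie below the other 12, and for Atg7 the HFD fed and HFD fast points are apart.

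Genes of the pathway outside the 42 were examined in 5 lists, 131 genes of which 130 were tested. With fasting on CD, 35 of the 130 passed (26.9%, beside 25.2% of all genes), 22 higher and 13 lower. On HFD 16 passed (12.3%, beside 8.86%), 9 higher and 7 lower. For each list, the shares of all genes tested were 13.7% higher and 11.5% lower on CD, and 4.78% higher and 4.07% lower on HFD. Among 38 lysosomal hydrolases and their activators, 11 rose and 1 fell on CD, and 7 rose on HFD. Their median log2 change was 0.11 on CD and 0.22 on HFD. The named rises on CD were those of Psap, the precursor of saposins that help lipid-degrading enzymes (0.67, adjusted p = 0.00013), and Ctsf, cathepsin F (0.62, adjusted p = 0.00027). On HFD they were Acp2, lysosomal acid phosphatase (0.43, adjusted p = 0.00214), and Ctsa, cathepsin A (0.55, adjusted p = 0.00453).

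Of 18 lysosomal membrane and accessory genes, 3 rose and 4 fell on CD, and 1 rose and 2 fell on HFD. Abca2, a lysosomal lipid transporter, fell by 1.13 on CD and 0.73 on HFD on the log2 scale (adjusted p = 8.88e-06 and 0.00119). Gm2a, the activator protein of ganglioside breakdown, fell by 1.47 and 0.86 (adjusted p = 1.61e-05 and 0.00331). Among 16 subunits and partners of the proton pump that acidifies the lysosome, 2 rose and 1 fell on CD (Atp6v1g1, -0.37, adjusted p = 0.00693, and Atp6v0c, 0.30, adjusted p = 0.00892, had the smallest p), and Atp6v0b alone passed on HFD (-0.26, adjusted p = 0.0156).

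Of 28 tested mTORC1 and AMPK genes, which sense amino acids and energy, 3 rose and 4 fell on CD, with Sesn3, a sestrin that restrains mTORC1 (-0.76, adjusted p = 0.00113), and Mlst8, an mTOR subunit (-0.47, adjusted p = 0.00213), at the smallest p. On HFD the GTPase Rraga passed (-0.24, adjusted p = 0.0293). Of 30 other autophagy genes, 3 rose and 3 fell on CD, led by Plekhm1, which tethers autophagosomes to lysosomes (-0.58, adjusted p = 0.000186), and Vamp8, a SNARE of their fusion (0.41, adjusted p = 0.000762). On HFD 1 rose and 3 fell, among them Retreg1, a receptor for endoplasmic reticulum (-0.89, adjusted p = 0.00875), and Tex264, another such receptor (0.36, adjusted p = 0.0177).

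HFD in fed livers changed 12 of the 130 (9.23%, beside 7.50%), 6 in each direction. Mtor (0.41, adjusted p = 0.0244), Fnip1 (0.51, adjusted p = 0.0355), the pump subunits Atp6v0a2 (0.41, adjusted p = 0.0254) and Atp6v1d (0.25, adjusted p = 0.0469), Retreg1 (0.82, adjusted p = 0.0129) and the ferritin receptor Ncoa4 (0.42, adjusted p = 0.0257) were higher. Lipa, lysosomal acid lipase (-0.50, adjusted p = 0.0187), Naglu (-0.46, adjusted p = 0.0303), Gm2a (-0.61, adjusted p = 0.0225) and Abca2 (-0.40, adjusted p = 0.0336) were lower. In fasted livers 9 of the 130 passed (6.92%, beside 7.70%), 5 higher and 4 lower. Higher were Mlst8 (0.54, adjusted p = 0.00579) and the hydrolases Ids (0.50, adjusted p = 0.00833) and Ppt1 (0.54, adjusted p = 0.00916). Lower were Vamp8 (-0.43, adjusted p = 0.00489), Wdr45, a relative of the Wipi proteins (-0.36, adjusted p = 0.0092), Akt1s1 (-0.34, adjusted p = 0.0144) and Atp6v1f (-0.33, adjusted p = 0.0156). The interaction passed for 4 of the 130 (3.08%, beside 2.59%), and those with the smallest p per list were Wdr45 (-0.46, adjusted p = 0.0282), Retreg1 (-1.15, adjusted p = 0.0292) and Mlst8 (0.61, adjusted p = 0.0248).

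Over the 5 comparisons 21 of the 42 genes passed at least once, beside 35.0% of all genes tested, and 21 did not. The latter were Pik3c3, Pik3r4, Uvrag, Atg9a, Atg3, Atg4a, Atg4b, Atg4c, Atg5, Atg10, Atg12, Gabarap, Gabarapl1, Gabarapl2, Nbr1, Tax1bp1, Tfeb, Lamp1, Lamp2, Ctsb and Ctsd. Some members share exonic bases with a neighbouring gene that was also counted, among them Becn1 with Cntd1 (43.9%), Atg4d with Kri1 (19.3%) and Ctsb with Fdft1 (12.8%). Some of their reads could be assigned to either gene. Ctsd shares 34.4% with Gm49369 on the same strand. Gm49369 was not among the genes counted, so that reads of the shared bases could be counted for Ctsd only. The share of bases is not a share of reads, and Cntd1 had 145 counts over all libraries beside 46200 for Becn1. Kri1 had 9202 counts beside 21253 for Atg4d, and Fdft1 had 59904 beside 432163 for Ctsb.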

How the data were processed

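RNA-seq counts of 16 mouse livers (4 groups of 4) were analysed. The authors isolated RNA with TRIzol and columns, made NEBNext Ultra II libraries from its poly(A) fraction, read them as paired ends, aligned reads to GRCm38 with TopHat2 2.0.11 in first-strand mode (version also in the submitters' processing notes) and deposited raw counts per Ensembl gene from featureCounts. The strand setting and annotation release of the counting are not given in the sources used here, so overlapping and antisense genes are uncertain. Transcripts without a poly(A) tail are missed, and a count per gene shows neither isoforms nor protein, lipidation or flux.

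Of 46078 IDs, 45143 were matched to a symbol. Positions and overlaps are from GENCODE M21. Counts were filtered with filterByExpr (15075 genes), TMM-scaled and fitted in edgeR 4.0.16 (R 4.3.3) with 1 coefficient per group over 16 libraries (12 residual degrees of freedom, coefficient of variation 19.2%). Quasi-likelihood tests were Benjamini-Hochberg adjusted over all genes tested, with a threshold of 0.05. Every adjusted p is from this test unless another tool or setting is named beside it, and intervals are 95% intervals from its SE, not adjusted for the number of genes. A total of 3 counts, taken as the detection floor, was 0.0536 to 0.0767 CPM, which covers counting error only. No pair of libraries of a group agreed within sampling noise (lowest chi-square per gene 37.5 among 24 pairs). Alternatives were DESeq2 1.42.0, limma-voom (limma 3.58.1), scaling by upper quartile, total count or DESeq2 size factors, no count filter or at least 1 CPM in 8 libraries, a block for the replicate number, a fit of only the 2 groups compared, and leaving out each library. On simulated data for fasting on CD (14955 genes, 200 changed) edgeR recovered 83% with 1.78% false calls. It recovered 56% of the smallest changes simulated, which were a rise of 50% or a fall by the same factor. In the data 25.2% of all genes passed in this comparison, so these rates need not hold there.

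The members and lists were chosen with earlier results of these data known. All 42 members are accounted for. Values of every library are given for members that passed in at least 2 comparisons, the 3 smallest p of each, and Ulk1, Map1lc3b, Sqstm1, Tfeb, Lamp1 and Ctsd. Other pathway genes are given by counts, with up to 2 of smallest p per list and comparison. Comparisons share groups, so their values are set side by side without a correlation. Protein sequences were not used here.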

Additional observations from a re-analysis of the deposited data

Results flagged for a closer look

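In 6 of 168 groups of 4 libraries, 1 library lay far from the other 3 by Dixon's ratio of its gap to the group's range on the log2 scale, past its 95% critical value, a rate below the 1 in 20 that chance gives. The ratio was 0.844 for Ulk2 in CD fast replicate 2 (60.4, 49.8, 62.2 and 62.6 CPM in the 4 replicates) and 0.953 for Atg2a in the same library (81.1, 124, 82.03 and 82.8 CPM). It was 0.846 for Atg4a in HFD fed replicate 4 (13.5, 13.4, 12.9 and 9.86 CPM) and 0.841 for Ctsl in that library (374, 380.3, 355 and 546 CPM), without which the change of Ctsl with fasting on HFD was 0.38 in place of 0.21. It was 0.926 for Gabarapl1 in HFD fed replicate 3 (375, 380.2, 311 and 378 CPM) and 0.863 for Map1lc3a in HFD fast replicate 4 (44.1, 42.6, 44.4 and 32.6 CPM).

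The change with fasting differed between the diets for 3 members by the edgeR interaction test. The difference, HFD minus CD, was -0.99 for Bnip3 (adjusted p = 0.00938), -0.74 for Map1lc3a (adjusted p = 0.0369) and -0.75 for Atg2a (adjusted p = 0.0388). Without the library that stood apart, CD fast replicate 2 for Atg2a and HFD fast replicate 4 for Map1lc3a, the difference was -0.57 for Atg2a (adjusted p = 0.0355) and -0.65 for Map1lc3a (adjusted p = 0.0576).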

How the results depend on the processing

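Of 30 calls of single members, 13 held in all alternatives tried, 17 were lost without at least 1 library, 13 under at least 1 other setting, and 0 changed sign. Held throughout were Ulk2, Atg13, Atg14, Atg2a, Atg4d, Map1lc3a, Optn and Bnip3 with fasting on CD, Ulk1, Wipi1 and Atg7 with fasting on HFD, and Bnip3 with HFD in fed livers and in the interaction. Leaving out each library in turn gave 9 to 16 members for fasting on CD (15 with all), 3 to 9 for fasting on HFD (7), 1 to 4 for HFD in fed livers (1), 0 to 4 for HFD in fasted livers (4) and 1 to 3 for the interaction (3). For fasting on HFD the count was 4 with no count filter, 4 with only the 2 groups compared and 10 with DESeq2. For HFD in fed livers it was 6 with DESeq2, 2 with limma-voom, 7 with total count scaling, 3 with upper quartile scaling, 2 with at least 1 CPM in 8 libraries, 2 with only the 2 groups compared and 4 with the replicate block. For HFD in fasted livers it was 9 with DESeq2, 1 with total count scaling, 1 with upper quartile scaling and 0 with only the 2 groups compared (edgeR; 8 members had an unadjusted p under 0.05 in that fit, in which 0.623% of all genes passed). Over all 4 groups limma-voom called 4. For the interaction it was 5 with DESeq2. The cause of these shifts was not tested. Taken over all groups, same-number libraries showed little pairing (8 of 24 same-number pairs had a correlation of deviations above 0.1, mean 0.043, beside -0.012 for other pairs). Between HFD fed and HFD fast, 3 of the 4 same-number pairs were above 0.1 and replicate 2 was not (0.110, 0.0583, 0.125 and 0.662 for replicates 1 to 4), with replicate 4 the highest of the same-number pairs. Whether the HFD libraries were paired or shared a batch was not tested. With the replicate block the 5 counts were 14, 6, 4, 5 and 3. Atg10, at 166 counts per library, is the member whose depth limits its precision most.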

Other observations

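Among genes of the pathway outside the 42, 2 were chosen after their values were seen. Idua, a hydrolase of glycosaminoglycans, rose with fasting by 1.03 on CD (SE 0.17, edgeR adjusted p = 0.000584) and 0.60 on HFD (adjusted p = 0.0397), and its rise on CD was the largest among the 38 hydrolases and activators. Lipa, which hydrolyses the lipids that reach the lysosome, rose with fasting on HFD by 0.56 (adjusted p = 0.0105), a comparison that shares the HFD fed libraries with its lower level in HFD fed against CD fed livers (-0.50, adjusted p = 0.0187).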
